A study of Mus musculus with 6 samples.

Results

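The genes described here encode the enzymes and transporters of glycolysis, gluconeogenesis, pyruvate entry into mitochondria and glycogen turnover. They were chosen by name, from a fixed list of 42 gene symbols covering glucose transport, each glycolytic step, the pyruvate dehydrogenase complex and its kinases, the gluconeogenic enzymes and glycogen enzymes. The list matched 43 of the 21700 rows of the expression table, because the symbol Aldoa stands on 2 rows. The questions were which isozyme of each step the cells expressed, and whether RNA levels differed between non-pregnant and pregnant mice.

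The RNA came from biliary epithelial cells (BECs), the cells that line the bile ducts. All mice were wild-type (WT) C57BL/6 females with no transgene or treatment in the labels. The non-pregnant group and the group at 8 days post coitum (dpc8) each had 3 libraries, and the mice's age is not given. Livers were perfused and digested, parenchymal cells were spun out, and BECs were sorted by flow cytometry with antibodies not named in the sources used here. The labels do not state that each library is a different animal. Every p-value therefore refers to the variation among these libraries, part of which may be technical.

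Glycolysis splits glucose into pyruvate in the cytosol, and hexokinase, phosphofructokinase and pyruvate kinase are its irreversible steps. Gluconeogenesis runs the other way and needs its own enzymes at those steps: pyruvate carboxylase, phosphoenolpyruvate (PEP) carboxykinase, fructose bisphosphatase and glucose 6-phosphatase. In the liver, hepatocytes release glucose through this route and store it as glycogen, and they use liver isozymes such as Pklr, Gys2 and Pygl, whereas most other epithelia express Hk1 or Hk2, Pkm, Gys1 and Pygb. Bile duct cells are known to take up glucose from bile through Slc5a1 and Slc2a1.

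Levels are in FPKM (fragments per kilobase of exon per unit of library depth). The length is that of all annotated exons of a gene merged, not of the transcripts the cells made. Levels and shares set between different genes depend on that length, whereas the ratio of 1 gene between libraries does not. The 6 libraries held between 24448312 and 34285323 recovered fragments, and between 15928 and 16245 genes were above 0. The epithelial markers Epcam (181.9 to 195 FPKM) and Krt19 (220.1 to 386 FPKM) were high in every library. Of 12 hepatocyte markers, Alb was very high in all 6 libraries (1973 to 2550 FPKM), and summed hepatocyte markers ran from 2412 to 2988 FPKM in the non-pregnant and from 2407 to 2735 in the pregnant libraries. Summed biliary markers (9 genes, 8 tested, 0 passed, all 8 estimates above 0) stood at 5691, 6252 and 4941 FPKM in the non-pregnant and 7203, 6810.3 and 6715 FPKM in the pregnant libraries. Cps1, a hepatocyte urea cycle enzyme, lay between 1.15 and 3.23 FPKM. Summed macrophage markers (10 genes, 8 tested, 3 of them higher in pregnancy at the threshold used below) stood at 45.8, 45.8 and 37.9 FPKM in the non-pregnant and 133, 108 and 75.4 FPKM in the pregnant libraries. Most of the non-pregnant sums was Cd68, which averaged 38.1 FPKM in the non-pregnant and 38.9 FPKM in the pregnant libraries. For the other macrophage markers, the ratio of pregnant to non-pregnant means ran from 8.76 (Marco) to 16.01 (Cd5l). Summed endothelial markers (6 genes) reached 159 FPKM in non-pregnant library 2 and lay between 10.9 and 23.1 in the other 5. Non-pregnant library 3 stood apart: it held the lowest of the 6 values for 28.5% and the highest for 35.8% of all tested genes, and for 15 and 9 of the 38 tested members. In bulk samples, fewer cells of a type and less RNA per cell cannot be told apart.

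No gene of glucose metabolism on the list passed the test between the 2 groups, and the members differed between them about as much as other genes did. The differences with the smallest p-values lay in gluconeogenesis: G6pc, the hormone-controlled glucose 6-phosphatase, averaged 6.35 ± 2.53 FPKM (SD, n = 3) in the non-pregnant and 2.60 ± 0.749 (SD, n = 3) in the pregnant libraries, and Pck2, the mitochondrial PEP carboxykinase, averaged 11.4 ± 0.558 and 9.65 ± 0.417. All 7 tested genes of lower glycolysis had estimates above 0 (44.8% of all genes), all of them under 0.38 on the log2 scale. In 5 of these 7 the lowest value was that of non-pregnant library 3, against 28.5% of all genes. The isozyme make-up was that of Hk1 over Hk2, Pkm over Pklr, Pygb over Pygl, G6pc3 over G6pc and Pck2 over Pck1 in every library.

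The comparison was made with limma on log2(FPKM + 1), with p-values adjusted over all 11412 genes whose mean over the 6 libraries was at least 1 FPKM. Differences below are pregnant minus non-pregnant on this scale, which understates the change of low genes. Of the 43 rows, 38 passed the filter and 5 (Hk2, Eno2, Pfkfb1, Fbp2 and Gys2) did not. None of the 38 passed an adjusted p of 0.05, against 10 of 11412 genes (0.0876%; 0.0613% higher and 0.0263% lower), and their adjusted p-values ran from 0.295 to 0.981 (limma). At an unadjusted p under 0.05 there were 0 higher members (7.09% of all genes) and 2 lower members (6.3%), namely G6pc and Pck2, against 13.4% of all genes in either direction. Of the 38, 22 had estimates above 0 (all genes 44.8%), and the median difference was 0.03 (all genes -0.02). In 37 of the 38 (97.4%) the estimate lay within 0.5 of 0, and in 31 (81.6%) the whole 95% interval did. The shares of all tested genes were near these, at 96.2% and 78.4%, as was the median absolute difference (0.11 for members and for all genes). The exceptions on the interval were Slc2a2, Eno1, Pklr, Pdk2, Fbp1, G6pc and Pck1, whose intervals reached beyond 0.5. The 3 libraries of a group did not overlap with the other 3 for 7 of the 38 (18.4%), near the 22.1% of all tested genes: Tpi1, Pgk1, Pkm, Pklr and Pcx were higher in pregnancy (9.9% of all genes) and G6pc and Pck2 lower (12.2%). The adjusted count rose above 0 in 2 alternative analyses. With libraries weighted by their quality, 5 of 38 members (13.2%) passed, near the 11.4% of all genes. Without non-pregnant library 2, G6pc alone passed (1 of 38, 2.63%), against 1.37% of all genes. Values under these settings are given in the closing section.

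**Figure D1:**
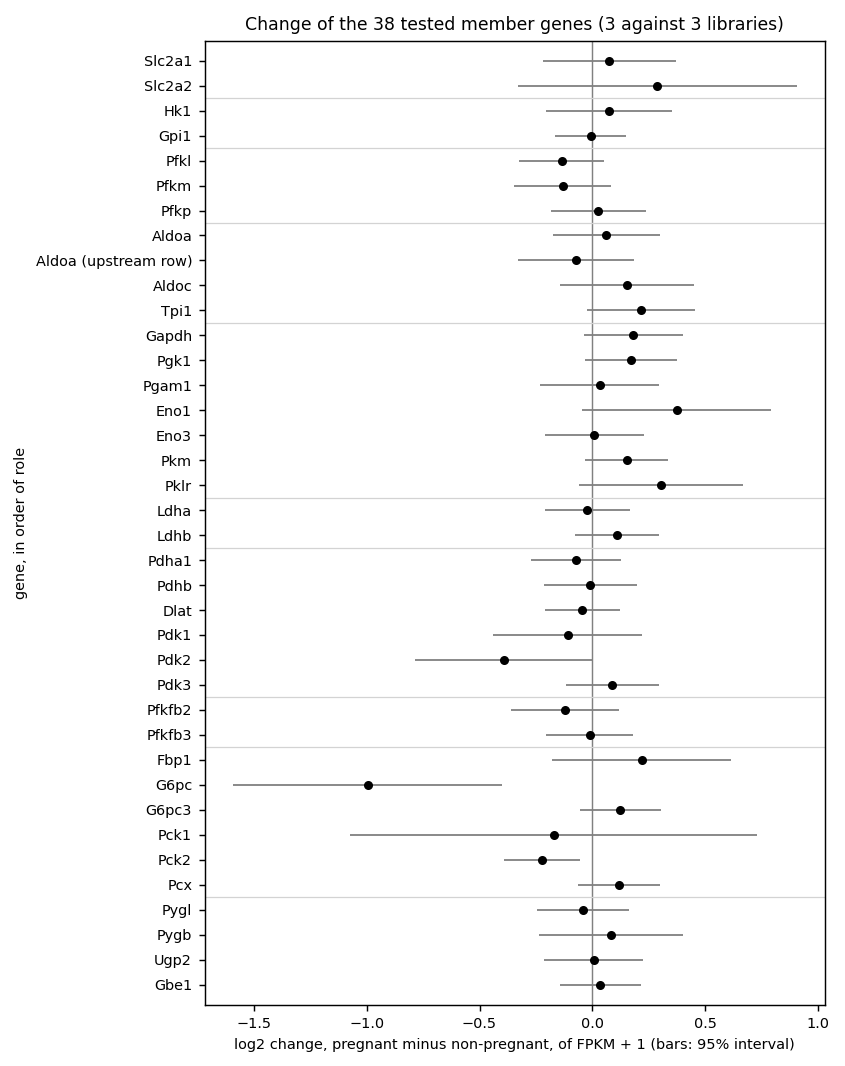
Difference between the groups (pregnant minus non-pregnant, log2(FPKM + 1) scale) for each tested member, ordered by role, with points for the limma estimate and bars for its 95% interval. G6pc, at -0.995, is the only member with an estimate farther than 0.5 from 0, and no member passed an adjusted p of 0.05.

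G6pc and Pck2 were the 2 members whose pregnant libraries all lay below the non-pregnant ones. The 250 bases before the RefSeq start of each (build GRCm38.p6) hold the letters TGTTTTG, the core of the insulin response sequence known from G6pc, where FOXO factors bind. They are shown with G6pc3, the widely expressed isozyme, whose 250 bases hold CACGTG, the E-box letters known to be bound by MYC and by the glucose-sensing factor ChREBP. Each sequence is on the + strand and ends before the gene's start in both RefSeq and GENCODE, and the capitals mark TGTTTTG or CACGTG.
G6pc, chr11:101367466-101367560: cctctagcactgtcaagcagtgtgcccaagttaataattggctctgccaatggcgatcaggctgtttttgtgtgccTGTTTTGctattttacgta
Pck2, chr14:55540016-55540265: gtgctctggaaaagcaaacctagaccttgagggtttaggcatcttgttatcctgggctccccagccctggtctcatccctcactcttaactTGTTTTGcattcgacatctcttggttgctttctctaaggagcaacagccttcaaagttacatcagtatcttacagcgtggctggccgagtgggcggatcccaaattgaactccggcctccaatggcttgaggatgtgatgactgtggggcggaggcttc
G6pc3, chr11:102189449-102189619: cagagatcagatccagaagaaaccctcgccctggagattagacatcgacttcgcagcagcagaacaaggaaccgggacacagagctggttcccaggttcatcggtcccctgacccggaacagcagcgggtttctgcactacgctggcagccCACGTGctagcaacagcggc

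The motif begins 174 bases before the RefSeq start of G6pc and 159 bases before that of Pck2. Among the 41 member genes with a RefSeq promoter, TGTTTTG occurred on either strand of the 250 bases in 3 (7.32%), namely G6pc, Pck2 and Fbp2. That was near its share of all 27025 genes, 6.38% (5.56% of 32851 promoter windows). ACGTG, the core bound by hypoxia-inducible factors, occurred in 19 of 41 members (46.3%) against 18.5% of genes (16.6% of windows). CACGTG, which contains ACGTG, occurred in 8 of 41 (19.5%) against 6.86% of genes (6.02% of windows). The 27025 genes were all those with a RefSeq promoter, expressed or not, so these shares cannot show an enrichment over expressed genes. The motifs were chosen with the expression values known, and a match is a description of letters, not of a bound site.

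Of the 2 listed glucose transporters, the more abundant was Slc2a2 (GLUT2), the low-affinity facilitative transporter of hepatocytes and other absorptive epithelia. Slc2a2 stood at 81.9, 93.9 and 41.7 FPKM in the non-pregnant libraries 1 to 3 and at 81.5, 87.9 and 82.2 FPKM in the pregnant libraries 1 to 3. Library 3 of the non-pregnant group lay far below the other 5, which overlapped. The difference was 0.29 (95% interval -0.33 to 0.90, limma adjusted p = 0.62), and without that library it was -0.07. Slc2a1 (GLUT1), the transporter of most cell types, had 43.8, 36.1 and 30.8 FPKM against 41.0, 36.3 and 38.5 FPKM, with overlapping groups and a difference of 0.07 (adjusted p = 0.79). Slc2a2 made up 57.5% to 72.2% of the sum of both. Slc5a1 (SGLT1), the sodium-coupled glucose importer of the apical membrane, was named after its values were seen. It stood above both, with 133.7, 136 and 95.1 FPKM in the non-pregnant and 111, 124 and 109 FPKM in the pregnant libraries.

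The trapping of glucose as glucose 6-phosphate rested on Hk1 among the listed hexokinases. Hk1 had 13.1, 13.2 and 9.71 FPKM in the non-pregnant and 12.1, 12.0 and 13.5 FPKM in the pregnant libraries (difference 0.07, limma adjusted p = 0.78). Hk2, the growth- and hypoxia-induced isozyme, was too low for the test, with 0.240, 0.161 and 0.0856 FPKM against 0.509, 0.542 and 0.278 FPKM. These values come from 41, 29 and 18 fragments against 81, 100 and 42, a pooled ratio of 2.89 with a 95% interval of 2.25 to 3.75 that covers counting error only. All 3 pregnant libraries lay above all 3 non-pregnant ones, and an exact permutation test of 3 against 3 cannot go below p = 0.10. Hk3, a hexokinase of myeloid cells, was also higher and was named after its values were seen: 0.152, 0.207 and 0.200 FPKM against 0.999, 0.932 and 0.665 FPKM. The summed macrophage markers given above, and each of these markers other than Cd68, were also higher in all pregnant libraries. The part of macrophage RNA in the Hk2 and Hk3 values was not tested.

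Among Hk1, Hk2, Hk3 and Hkdc1, a set widened after the data were seen, Hkdc1 had the largest share of FPKM. It is a hexokinase-like enzyme encoded next to Hk1. Hkdc1 had 21.4, 21.4 and 17.2 FPKM in the non-pregnant and 24.1, 21.9 and 25.2 FPKM in the pregnant libraries. That made 61.2% to 63.8% of the summed FPKM of these 4 genes. In fragments Hkdc1 (3104 to 3466 a library) and Hk1 (2761 to 3403) overlapped, with exon lengths of 5132 and 8532 bases. The groups of Hkdc1 did not overlap, and its difference of 0.24 did not pass (limma adjusted p = 0.38). Gpi1, which turns glucose 6-phosphate into fructose 6-phosphate, stood at 36.9, 36.0 and 38.3 FPKM against 36.8, 36.4 and 37.5 FPKM, a difference of -0.01 with a 95% interval of -0.16 to 0.15.

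RNA of all 3 phosphofructokinase subunits was present. Pfkl, the liver subunit, had 19.0, 17.7 and 16.4 FPKM in the non-pregnant and 15.5, 15.5 and 16.9 FPKM in the pregnant libraries. Pfkm, the muscle subunit, had 11.2, 11.2 and 13.6 FPKM against 11.3, 10.6 and 10.5 FPKM, and Pfkp, the platelet subunit, had 8.18, 7.36 and 6.47 FPKM against 7.70, 7.22 and 7.49 FPKM. By FPKM the order Pfkl, Pfkm, Pfkp held in every library, with Pfkl at 44.9% to 49.5% of the sum. That order depends on the exon lengths used, which were 6675, 3340 and 13401 bases. In fragments Pfkp (2539 to 3142 a library) lay above Pfkm (891 to 1604). Groups overlapped for all 3 subunits, with differences of -0.14, -0.13 and 0.03 (limma adjusted p = 0.46, 0.52 and 0.90).

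The bifunctional PFKFB enzymes set the level of fructose 2,6-bisphosphate, the allosteric activator of phosphofructokinase. Pfkfb3, the isozyme with the strongest kinase activity, led with 18.5, 18.5 and 21.0 FPKM in the non-pregnant and 20.1, 17.9 and 19.5 FPKM in the pregnant libraries. It made up 68.1% to 74.1% of the 3 listed genes, Pfkfb2 ranged from 6.44 to 8.35 FPKM, and Pfkfb1, the liver isozyme, only from 0.263 to 0.474 FPKM. The differences of Pfkfb3 and Pfkfb2 were -0.01 and -0.12, with overlapping groups (limma adjusted p = 0.95 and 0.58).

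Aldolase and triose phosphate isomerase cleave fructose 1,6-bisphosphate and interconvert the products. Aldoa, the ubiquitous aldolase, had the highest FPKM of the members. It had 150.8, 181 and 147 FPKM in the non-pregnant and 164, 163 and 172 FPKM in the pregnant libraries (difference 0.06, limma adjusted p = 0.78). Its second row, a separate gene model just upstream on chromosome 7, ranged from 4.59 to 6.16 FPKM and differed by -0.07 (adjusted p = 0.76). Aldoc, the brain-type aldolase, had 17.3, 23.2 and 16.3 FPKM against 20.2, 20.6 and 22.0 FPKM, so Aldoa held 88.6% to 90.1% of the pair. Tpi1 had 57.6, 61.3 and 48.2 FPKM against 67.7, 63.2 and 62.7 FPKM, with every pregnant library above every non-pregnant one. Its difference of 0.21 (SE 0.103, 95% interval -0.02 to 0.45) did not pass (adjusted p = 0.40).

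The lower glycolytic enzymes, from glyceraldehyde 3-phosphate to pyruvate, had a median difference of 0.17 over the 7 tested genes, and none passed. Gapdh had 42.0, 43.4 and 37.2 FPKM in the non-pregnant and 48.9, 42.0 and 48.4 FPKM in the pregnant libraries (difference 0.18, limma adjusted p = 0.42). Pgk1, which makes the first ATP of the pathway, had 7.53, 9.06 and 8.95 FPKM against 9.70, 9.24 and 10.1 FPKM. Its pregnant libraries all lay above the others, by 0.17 in the fit (adjusted p = 0.42). Pgam1, the mutase, ranged from 5.69 to 7.54 FPKM and differed by 0.03 (adjusted p = 0.90). In 5 of the 7 genes the lowest value was that of non-pregnant library 3. The summed biliary markers were also lowest in that library, and their part in the lower glycolysis values was not tested.

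Eno1, the ubiquitous enolase, had the largest estimate of lower glycolysis. It stood at 37.4, 51.6 and 29.3 FPKM in the non-pregnant and 50.3, 47.5 and 52.5 FPKM in the pregnant libraries. The groups overlapped through non-pregnant library 2, and the difference of 0.37 (95% interval -0.04 to 0.79, limma adjusted p = 0.40) was 0.19 without non-pregnant library 3. Eno3, the muscle enolase, ranged from 5.36 to 6.69 FPKM, and its share of the 3 listed enolases was 13.9%, 11.4% and 15.3% against 10.2%, 11.1% and 10.9%. Eno2, the neuronal enolase, was too low for the test, with 0.334, 0.260 and 0.290 FPKM against 0.447, 0.365 and 0.647 FPKM. It came from 45, 37 and 48 fragments against 56, 53 and 77, and the groups did not overlap (pooled ratio 1.63, 95% interval 1.3 to 2.06 for counting error only).

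Both pyruvate kinases were present. Pkm, the kinase of most tissues, had 26.6, 26.2 and 23.7 FPKM in the non-pregnant and 29.8, 27.0 and 28.3 FPKM in the pregnant libraries. Pklr, the liver and red cell kinase, had 7.89, 8.08 and 4.97 FPKM against 8.58, 8.51 and 8.90 FPKM. The groups did not overlap for either gene, with differences of 0.15 and 0.30 (limma adjusted p = 0.42 for both). Without non-pregnant library 3 the difference of Pklr was 0.11. Pkm made up 76.1% to 82.7% of the pair. Its M1 and M2 splice forms cannot be read from a table with 1 value per gene. Erythroid markers summed to at most 0.722 FPKM in any library.

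**Figure D2:**
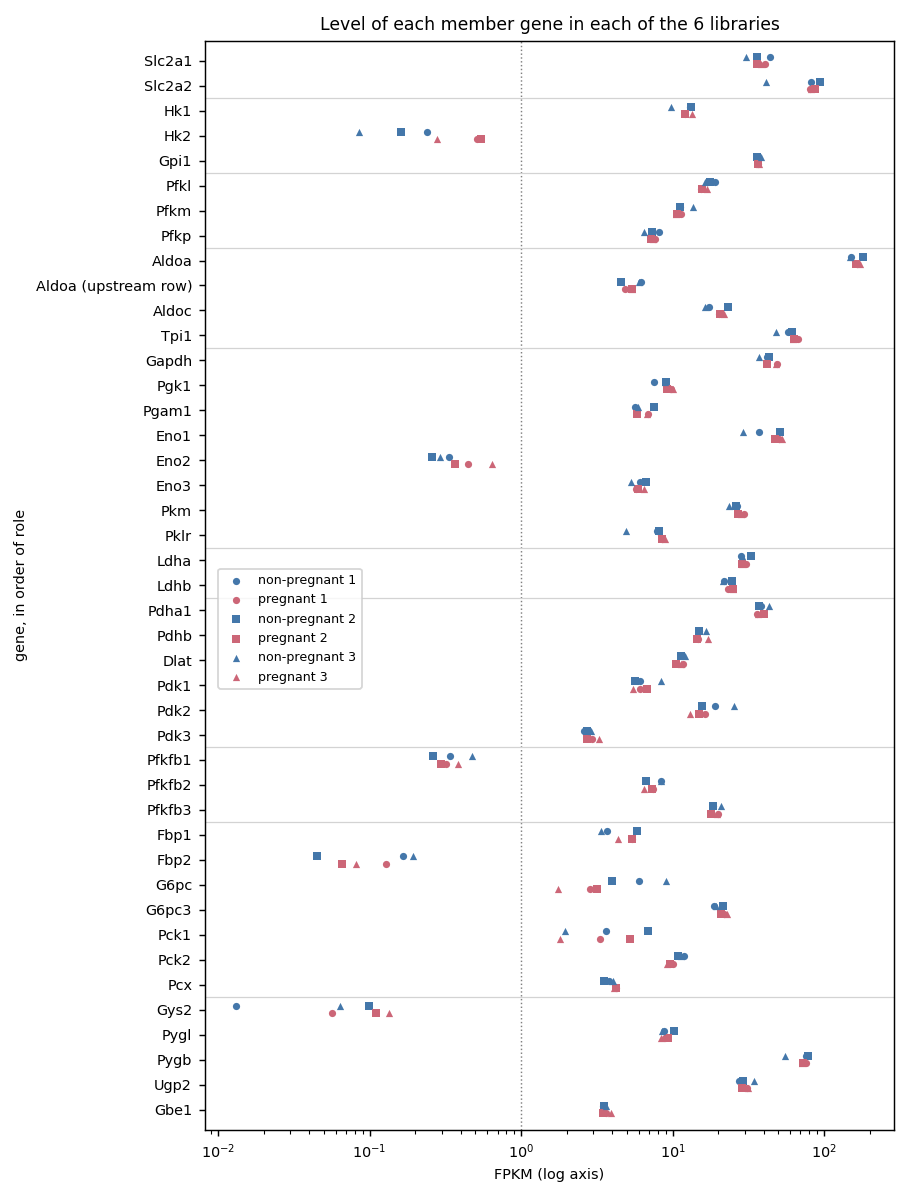
Level of each member in each of the 6 libraries (FPKM, log axis), grouped by role, with 1 point per library, blue for non-pregnant and red for pregnant, its shape giving the library number. Aldoa, Slc2a2 and Pygb lie highest, Hk2, Eno2, Pfkfb1, Fbp2 and Gys2 lie under 1 FPKM, and the groups separate for G6pc and Pck2 (lower in pregnancy) and for Hk2, Eno2, Tpi1, Pgk1, Pkm, Pklr and Pcx (higher).

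Pyruvate leaves the pathway as lactate or enters mitochondria. Ldha, whose subunit favours lactate production, had 28.5, 32.9 and 28.7 FPKM in the non-pregnant and 30.6, 29.0 and 29.0 FPKM in the pregnant libraries. Ldhb, whose subunit favours lactate use, had 21.9, 24.6 and 21.4 FPKM against 23.4, 25.0 and 25.1 FPKM. The differences were -0.02 and 0.11 with overlapping groups (limma adjusted p = 0.91 and 0.53). By FPKM Ldha made up 53.6% to 57.3% of the pair. That share rests on exon lengths of 3310 bases for Ldha and 1570 for Ldhb. In fragments Ldha ranged from 2427 to 3350 a library and Ldhb from 978 to 1214. The pyruvate dehydrogenase subunit genes Pdha1, Pdhb and Dlat ranged from 36.3 to 43.2, from 14.5 to 17.1 and from 10.6 to 12.1 FPKM. Their differences were -0.07, -0.01 and -0.04 (adjusted p = 0.70, 0.97 and 0.78).

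The pyruvate dehydrogenase kinases switch that complex off. Pdk2, the highest in FPKM of the 3 listed kinases, had 18.9, 15.5 and 25.6 FPKM in the non-pregnant and 16.5, 14.9 and 13.0 FPKM in the pregnant libraries. Its mean was 0.738 of the non-pregnant mean in pregnancy, the groups overlapped, and the difference of -0.39 (95% interval -0.79 to 0.00) did not pass (limma adjusted p = 0.37). Its estimate was -0.21 without non-pregnant library 3. Pdk1, a hypoxia-induced kinase, had 6.06, 5.65 and 8.45 FPKM against 6.07, 6.76 and 5.45 FPKM, and Pdk3 ranged from 2.59 to 3.25 FPKM. Pdk2 held 68.6%, 65.0% and 69.3% of the summed FPKM of the 3 kinases in non-pregnant and 64.7%, 61.0% and 59.9% in pregnant libraries. In fragments Pdk2 (1040 to 2851 a library) and Pdk1 (1073 to 2315) overlapped, with exon lengths of 3163 and 7779 bases. Pdk4, the fasting- and glucocorticoid-induced kinase, was named after its values were seen, with 15.8, 6.17 and 63.9 FPKM against 6.42, 6.38 and 4.52 FPKM. Non-pregnant library 3 stood far above the other 5, and the difference of -1.56 did not pass (adjusted p = 0.37). In that library Pdk4 made up 63.4% of all 4 kinases against 17.3% to 36.4% in the other 5 libraries.

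The last step of glucose release showed the largest difference among the 38 tested members on the log2(FPKM + 1) scale. G6pc (ENSMUSG00000078650, mm10 chromosome 11, 101367561 to 101377903, + strand) stood at 6.02, 4.0 and 9.02 FPKM in the non-pregnant and 2.86, 3.18 and 1.75 FPKM in the pregnant libraries. Every pregnant library lay below every non-pregnant one. The counts behind these values were 416, 292 and 767 fragments against 184, 237 and 107, so the pooled ratio was 0.409, between 0.369 and 0.452 by counting error alone (95%). On the log2 scale the limma difference was -0.995 (SE 0.257, 95% interval -1.59 to -0.40), with an adjusted p of 0.295. Without non-pregnant library 2, the lowest of its group, the difference was -1.24 and passed (adjusted p = 0.0418), and without non-pregnant library 3, the highest, it was -0.74 (adjusted p = 0.30).

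G6pc3, the ubiquitous glucose 6-phosphatase, carries the same activity in cells that do not export glucose. It had 18.9, 21.4 and 19.5 FPKM in the non-pregnant and 21.8, 20.8 and 22.8 FPKM in the pregnant libraries, with overlapping groups (difference 0.12, limma adjusted p = 0.48). G6pc made up 24.1%, 15.7% and 31.6% of the pair in non-pregnant and 11.6%, 13.2% and 7.14% in pregnant libraries. The shares of the groups did not overlap, and this follows from the G6pc values, so it is no separate result. Of the 10 tested hepatocyte markers, 6 had estimates below 0 and 4 above, 0 passed, and the median was -0.14. Alb averaged 2327 ± 310.3 FPKM (SD, n = 3) in the non-pregnant and 2147 ± 110.04 in the pregnant libraries. Groups did not overlap for 30% of these markers (22.1% of all genes). Serpina1c and Asgr1 were higher in pregnancy (0.76 and 0.54, limma adjusted p = 0.30 for both), and Ttr was lower (-0.22, adjusted p = 0.50). The part of hepatocyte RNA in the G6pc values was not tested. Slc37a4, the transporter that carries glucose 6-phosphate to both enzymes, was named after its values were seen. It had 13.7, 10.8 and 31.0 FPKM against 11.8, 11.2 and 9.11 FPKM, with overlapping groups (difference -0.61, adjusted p = 0.43).

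**Figure D3:**
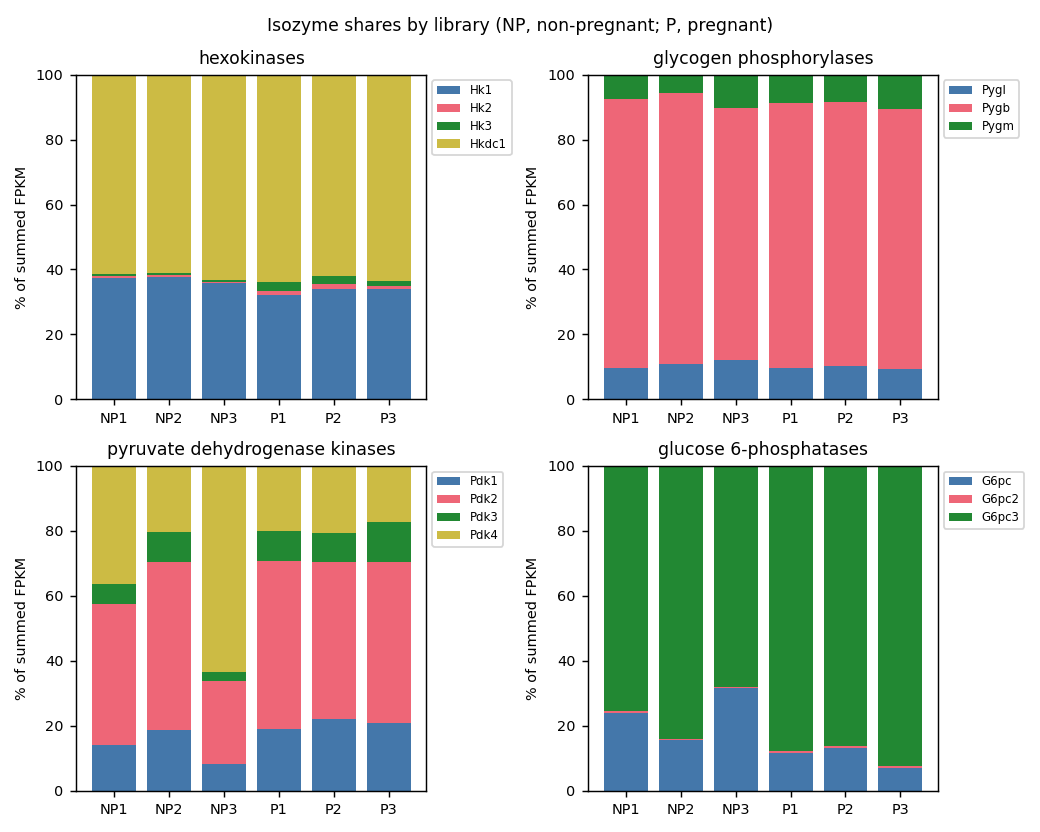
Share of each isozyme in the summed FPKM of the family members drawn (percent) for hexokinases, glycogen phosphorylases, pyruvate dehydrogenase kinases and glucose 6-phosphatases, with 1 stacked bar per library (NP, non-pregnant and P, pregnant). With G6pc2 in the sum, G6pc fills 15.7% to 31.5% of the bars in non-pregnant and 7.11% to 13.2% in pregnant libraries, and Pdk4 fills 63.4% in non-pregnant library 3.

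PEP carboxykinase turns oxaloacetate into PEP and is split between cytosol and mitochondria. Pck2, the mitochondrial form (mm10 chromosome 14, 55540266 to 55551242), had 12.0, 10.9 and 11.4 FPKM in the non-pregnant and 10.1, 9.59 and 9.26 FPKM in the pregnant libraries. Its groups did not overlap, and the spread within each was small, so a ratio of means of 0.844 gave a difference of -0.22 (SE 0.0729, 95% interval -0.39 to -0.05). That did not pass (limma adjusted p = 0.30). Pck1, the cytosolic form induced by fasting, was uneven in both groups, with 3.64, 6.91 and 1.94 FPKM against 3.30, 5.26 and 1.81 FPKM. Its difference of -0.17 had a 95% interval of -1.07 to 0.73, and Pck2 made up 61.2% to 85.5% of the pair.

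Directions were mixed among the other gluconeogenic enzymes. Pcx, the pyruvate carboxylase that starts the route, had 3.79, 3.56 and 4.04 FPKM in the non-pregnant and 4.24, 4.24 and 4.11 FPKM in the pregnant libraries. The groups did not overlap, with the pregnant ones higher by 0.12 (limma adjusted p = 0.50). Fbp1, the liver fructose bisphosphatase, had 3.67, 5.85 and 3.39 FPKM against 5.38, 5.42 and 4.39 FPKM, with overlapping groups (difference 0.22, adjusted p = 0.56). Fbp2, the muscle form, was too low for the test, between 0.0450 and 0.193 FPKM, with 19 fragments in all non-pregnant and 11 in all pregnant libraries (pooled ratio 0.661, 95% interval 0.284 to 1.46). Of the 6 tested gluconeogenic members, 3 had estimates above 0 and 3 below.

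The estimates for the 4 tested glycogen genes lay between -0.04 and 0.08. Pygb, the brain-type glycogen phosphorylase, was among the highest members, with 76.5, 78.6 and 54.9 FPKM in the non-pregnant and 76.2, 72.3 and 71.5 FPKM in the pregnant libraries (difference 0.08, limma adjusted p = 0.78). Pygl, the liver phosphorylase, ranged from 8.39 to 10.2 FPKM, so Pygb made up 86.6% to 89.7% of the pair. Ugp2, which makes the UDP-glucose used to build glycogen, ranged from 27.7 to 34.3 FPKM, and Gbe1, the branching enzyme, from 3.50 to 3.90 FPKM. The estimates of Pygl, Ugp2 and Gbe1 were -0.04, 0.01 and 0.03, with overlapping groups (adjusted p = 0.83, 0.98 and 0.84). Gys2, the liver glycogen synthase, lay between 0.0131 and 0.134 FPKM, from 1 to 9 fragments a library. Gys1, the synthase of muscle and most tissues, was named after its values were seen. It ranged from 5.46 to 7.99 FPKM and made up 98.1% to 99.8% of the synthase sum.

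The members varied more within the non-pregnant than within the pregnant group. The median SD on the log2 scale was 0.151 in non-pregnant and 0.0680 in pregnant libraries, and it was larger in the non-pregnant group for 33 of 38 members (86.8%). Over all tested genes the medians were 0.138 and 0.0774, and the share was 75.2%. Slc2a2, Eno1 and Pklr had their lowest value in non-pregnant library 3, whereas Pdk2, G6pc, Pdk4 and Slc37a4 had their highest value there. Txnip, a glucose-induced inhibitor of glucose uptake named after its values were seen, was also highest there, with 603, 402 and 1314 FPKM in the non-pregnant and 363, 430.3 and 241 FPKM in the pregnant libraries (difference -1.03, limma adjusted p = 0.36).

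**Figure D4:**
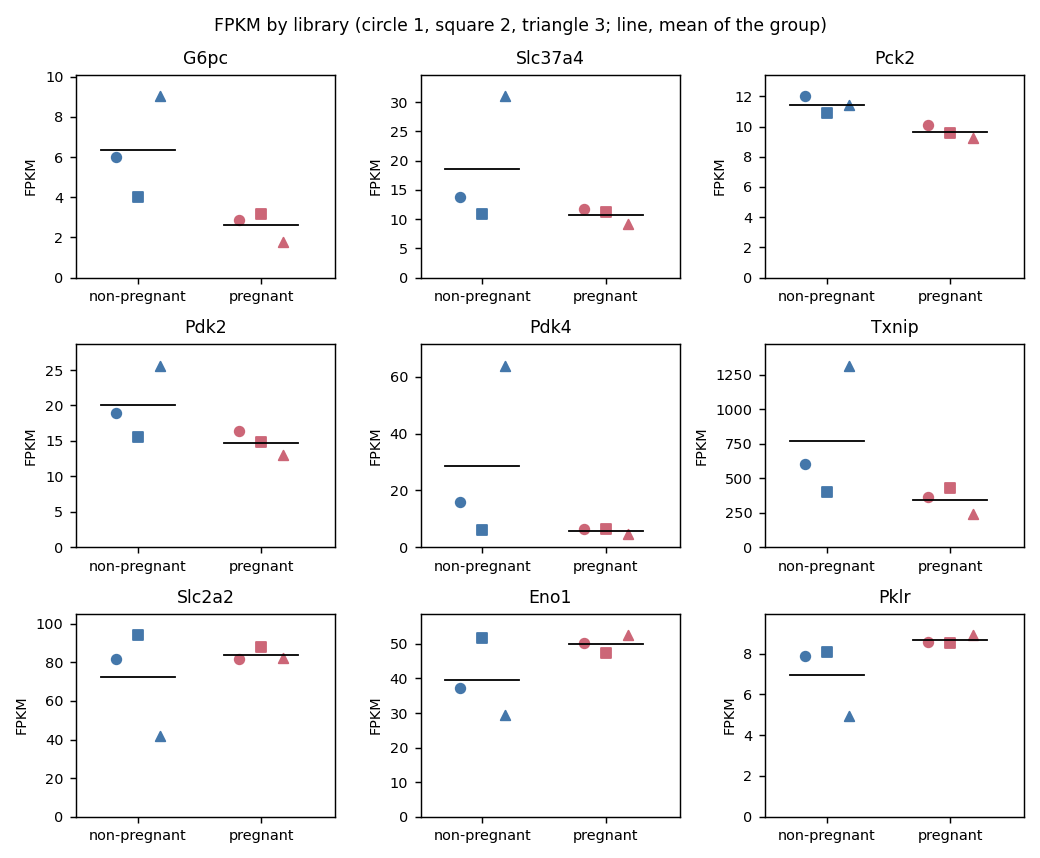
FPKM in each library (linear axes from 0) for 9 genes chosen after their values were seen, with 1 point per library (circle 1, square 2, triangle 3) and a line at each group mean. Non-pregnant library 3 is highest for G6pc (9.02 FPKM), Pdk4 (63.9 FPKM) and Txnip (1314 FPKM) and lowest for Slc2a2 (41.7 FPKM) and Eno1 (29.3 FPKM).

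Beside the members, 64 further genes of the same pathways were examined, from a list of transporters, minor isozymes, regulators and pentose phosphate enzymes. Of these, 50 passed the filter, 0 passed the test, 19 had estimates above 0 and the median difference was -0.05. At an unadjusted p under 0.05, 4 of the 50 were higher (7.09% of all genes) and 5 lower (6.3% of all genes). Non-overlapping groups were seen for 14 of 50 (28%, against 22.1% of all genes). Eno4, a sperm enolase, had the smallest p, with 0.761, 0.914 and 0.707 FPKM in the non-pregnant and 1.59, 1.23 and 1.41 FPKM in the pregnant libraries (difference 0.43, limma adjusted p = 0.29). Slc16a7, the monocarboxylate transporter MCT2, had 3.03, 2.34 and 3.03 FPKM against 3.60, 3.60 and 4.46 FPKM (0.36, adjusted p = 0.30). Pdpr, the regulatory subunit of pyruvate dehydrogenase phosphatase, had 11.1, 9.97 and 12.7 FPKM against 8.55, 9.32 and 7.95 FPKM (-0.35, adjusted p = 0.30). Ppp1r3c, which targets protein phosphatase 1 to glycogen, had 18.2, 11.6 and 25.3 FPKM against 10.6, 11.1 and 7.97 FPKM (-0.78, adjusted p = 0.30). The groups did not overlap for any of these 4 genes, which were named by smallest p.

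Genes known to control the pathway were described in the same way. Of 16 hypoxia-response genes that are not members, all were tested, 0 passed and 6 had estimates above 0 (median -0.12). Vegfa, the hypoxia-induced endothelial growth factor, had 186, 180.3 and 141 FPKM in the non-pregnant and 223, 212 and 205 FPKM in the pregnant libraries (difference 0.35, limma adjusted p = 0.32). Kdm3a, Egln1 and Epas1, a histone demethylase, the oxygen sensor PHD2 and the factor HIF-2 alpha, differed the other way by -0.22, -0.15 and -0.28 (adjusted p = 0.37, 0.40 and 0.40). Of 18 genes of glucose and hormone control, 17 were tested, 0 passed and 3 had estimates above 0 (median -0.16). Myc, a growth factor-induced transcription factor, had 59.6, 69.1 and 67.7 FPKM against 75.4, 81.1 and 86.4 FPKM (0.30, adjusted p = 0.30). Klf15, a glucocorticoid-induced activator of gluconeogenic genes, had 35.6, 29.7 and 51.4 FPKM against 29.2, 24.5 and 22.4 FPKM (-0.57, adjusted p = 0.31). Hnf4a, a liver-enriched activator of G6pc and Pck1, and Insr, the insulin receptor, differed by -0.21 and -0.34 (adjusted p = 0.34 and 0.35). Groups overlapped for Epas1 and Insr and did not for the other 6, but these genes were named by smallest p. Over both lists, groups did not overlap for 7 of 33 tested genes (21.2%), near the 22.1% of all tested genes.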

How the data were processed

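Total RNA from sorted biliary epithelial cells was depleted of ribosomal RNA and sequenced, per the labels' protocols. The authors deposited FPKM values, 1 column per library. The tools STAR 2.7.9a, HTSeq 0.13.5, cutadapt 3.4 and DESeq2 1.30.1 and the build mm10 stand in the submitters' processing notes, without roles. How multi-mapped reads and strand were counted is not given in the sources used here, so Gapdh, Aldoa, Pgk1, Pgam1, Eno1, Tpi1, Ldha and Pkm, which have near-identical copies, and the neighbours Hk1 and Hkdc1 are uncertain to that extent. FPKM times the GENCODE vM21 exon length was a whole multiple of 1 step per library for 98.5% to 98.6% of values above 0 (tolerance 0.01). Dividing gave recovered fragments, whose exact 95% intervals cover counting error only, since there were no molecular identifiers.

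Groups came from the sample titles. Differences were fitted with limma 3.58.1 (R 4.3.3, trended empirical Bayes) on log2(FPKM + 1), for genes averaging 1 FPKM or more, with Benjamini-Hochberg adjustment over all 11412 and a threshold of 0.05. The fit was also run on simulated data with the same count variation in every library and larger planted changes than most members showed. That run gives no error rate for the differences reported here. Isozyme shares are percentages of summed FPKM, depend on the merged exon length of each gene and were not tested. Promoter windows are from RefSeq (GRCm38.p6), and 41 of 42 symbols matched. Values are printed for every member, for up to 4 genes of each further list by smallest p, and for Alb, Krt19 and Epcam. Members and lists were chosen with earlier results of these data known. Alternatives covered the pseudocount, filter, scaling, variance model, replicate block, recovered fragments and leaving out each library. Some genes of these pathways are not reported here.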

Additional observations from a re-analysis of the deposited data

How the results depend on the processing

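Of the 38 tested members, 23 kept their direction under every setting run, and 15 reversed under at least 1, with estimates of at most 0.29 as reported. The number of members past the threshold was 0 as reported and stayed 0 under every other pseudocount, filter, scaling and variance setting and on recovered fragments (limma-voom), except with array weights, where it was 5 (Pgk1 and Eno1 higher, adjusted p = 0.0303 and 0.0349, and Pfkl, G6pc and Pck2 lower, adjusted p = 0.0330, 0.0143 and 0.0244). Leaving out a library gave 0 to 1, the 1 being G6pc without non-pregnant library 2. The cause of these changes was not tested. Over all genes the count was 10 as reported, 0 with no filter (2258 at an unadjusted p under 0.05), 4 with a filter of 5 FPKM, 5 with robust empirical Bayes, 1301 with array weights and 1 with limma-voom (1472 unadjusted). It was 0 to 156 with 1 library left out: 156 without non-pregnant library 2, 12 without pregnant library 3 and 0 without each of the other 4 (844 to 1435 unadjusted). The cause was not tested. With array weights the sign reversed for Slc2a1 (-0.13), Hk1 (-0.060), Pfkp (-0.091), Eno3 (-0.028), Ldha (0.034), Pdk1 (0.021), Pfkfb3 (0.030), Pygl (0.0077) and Pygb (-0.033). Upper-quartile scaling reversed Gpi1 (0.020), Ldha (0.0044), Pdhb (0.017) and Pfkfb3 (0.014), quantile normalisation Gpi1 (0.0075), Pdhb (0.019) and Pfkfb3 (0.023), and limma-voom Gpi1 (0.0028). With 1 library left out, these members spanned 0 over the 6 fits: Slc2a1 (-0.046 to 0.20), Slc2a2 (-0.065 to 0.51), Hk1 (-0.061 to 0.14), Gpi1 (-0.027 to 0.017), Pfkp (-0.050 to 0.099), Pgam1 (-0.034 to 0.14), Eno3 (-0.063 to 0.074), Ldha (-0.057 to 0.042), Pdhb (-0.079 to 0.042), Pdk1 (-0.21 to 0.045), Pfkfb3 (-0.045 to 0.046), Pck1 (-0.52 to 0.19), Pygl (-0.091 to 0.030), Pygb (-0.080 to 0.17) and Ugp2 (-0.056 to 0.094). The cause of these reversals was not tested. Whether equal replicate numbers pair libraries is not stated in the labels, and the descriptions number non-pregnant library 3 as 4. The correlations of same-numbered deviations were 0.07, 0.02 and -0.14, among those of unlike numbers (-0.152 to 0.103). Deviations within 3 libraries sum to 0, so these correlations cannot show whether libraries were paired. With the replicate number as a block, 13 of all genes and 0 members passed. With 3 libraries a group, members under 1 FPKM rest on 1 to 100 fragments a library.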
